A study of Mus musculus with 16 samples.

Results

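Sustained hypoxia was compared with intermittent hypoxia in mouse liver by RNA sequencing. The comparison used 8 of the 16 libraries of the series, chosen by their treatment label alone, with 4 libraries of sustained hypoxia and 4 of intermittent hypoxia. All came from the liver of wild type C57BL/6J mice aged 12 weeks, and 4 libraries of room air mice of the same strain and age are given beside them. The libraries of the overlap group, 4 in number, entered the filter on low counts, the scaling and the fit, as a source of the estimated spread. Their own levels are not described. Oxygen levels, the length of the exposures, the feeding state, the hour of tissue collection and whether a library was made from 1 animal or several were not stated in the labels. All 14553 genes that passed a filter on low counts were tested, out of 55487 in the deposited table.

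Low oxygen acts on cells in part through the hypoxia-inducible factors (HIF), whose alpha subunits are destroyed when oxygen is present and build up when it is scarce. HIF target genes raise glycolysis and the growth of blood vessels, and Vegfa, the vascular growth factor, is one of the best known of them. Sustained hypoxia keeps oxygen low, as at altitude or in chronic lung disease, whereas intermittent hypoxia alternates low oxygen with reoxygenation and serves as a model of sleep apnoea. The comparison asks in which genes the livers of mice under these 2 patterns of low oxygen differ.

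The extraction protocol names retina, while the tissue label says liver. The 10 hepatocyte marker genes summed to between 92304 and 97284 CPM (counts scaled to library size) in sustained hypoxia libraries, between 63544 and 88761 CPM in intermittent hypoxia libraries and between 74145 and 103758 CPM in room air libraries. Of 10 photoreceptor genes, Rcvrn and Prph2 had no counts in any of the 8 libraries. Library totals were 38765132 to 64789635 counts in sustained hypoxia and 31747011 to 54613020 in intermittent hypoxia (exact two-sided permutation p = 0.229, n = 4 per group).

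The groups held different kinds of RNA. Ribosomal RNA, nearly all of it from 1 gene, took 1.55%, 1.57%, 2.76% and 2.77% of the counts in the sustained hypoxia libraries, against 22.1%, 25.6%, 34.8% and 18.5% in the intermittent hypoxia libraries; room air libraries averaged 5.22% ± 3.71 (SD, n = 4). Mitochondrially encoded protein genes took 1.31% ± 0.106 in sustained hypoxia, 6.73% ± 1.71 in intermittent hypoxia and 1.56% ± 0.498 in room air. All protein-coding genes together took 94.5% ± 0.760 in sustained hypoxia, 67.7% ± 6.92 in intermittent hypoxia and 90.8% ± 4.27 in room air. In these 3 shares the sustained and intermittent hypoxia libraries did not overlap (exact two-sided permutation p = 0.0286, the smallest that 4 against 4 libraries allow, and 0.0571 after Benjamini-Hochberg adjustment over 6 measures). Fits with and without the ribosomal share are given below.

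**Figure D1:**
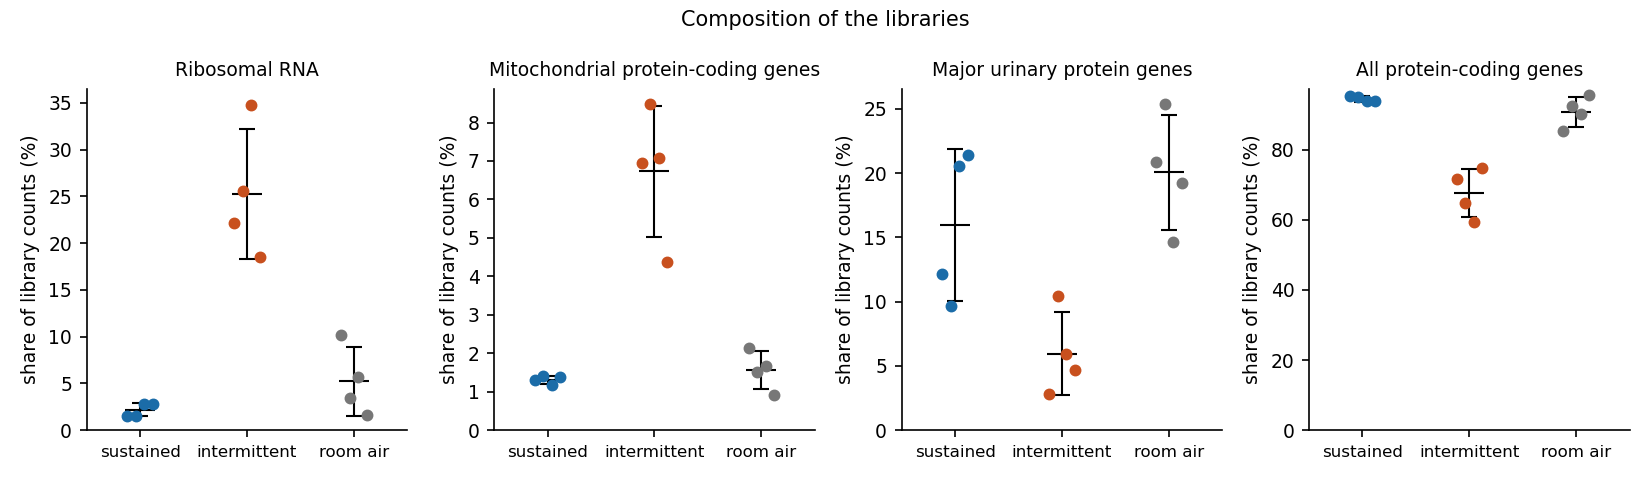
Share of library counts, in percent, of ribosomal RNA, mitochondrial protein-coding genes, major urinary protein genes and all protein-coding genes. Each point is a library, with sustained hypoxia on the left, intermittent hypoxia in the middle and room air on the right, and lines give the mean ± SD. The ribosomal share was 1.55% to 2.77% in sustained hypoxia and 18.5% to 34.8% in intermittent hypoxia.

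Against intermittent hypoxia, sustained hypoxia livers had 2748 genes higher and 2836 lower, so that 38.4% of the genes tested were called in either direction by edgeR (18.9% higher and 19.5% lower; Benjamini-Hochberg adjusted p under 0.05). The 18.9% and 19.5% are the background for every list count given below. The called genes had a median absolute log2 fold change of 0.86, and 573 were higher and 1637 lower by at least 2-fold. Values of the groups did not overlap in 35.8% of the genes tested. For comparison, 0.0481% of genes were called in sustained hypoxia against room air and 37.1% in intermittent hypoxia against room air, in the same fit. Over all genes the median log2 fold change was −0.12 with upper-quartile scaling, against −0.03 with TMM scaling. Upper-quartile scaling called 2276 genes higher and 3188 lower. A fit adjusted for gene length and GC content called 4865 genes, 2875 higher and 1990 lower.

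With the ribosomal RNA share of each library as a covariate, 14 genes were called (10 higher and 4 lower, 0.0962% of those tested), and 1853 had an unadjusted p under 0.05. Of the 5584 calls, 93.5% kept their sign in that fit. Medians of some gene lists described below changed sign in that fit, such as sterol synthesis (0.55 to −0.39) and lipid droplets (0.45 to −0.16). So did those of erythroid genes (0.85 to −0.77), fatty acid synthesis (0.17 to −0.48) and HIF targets (0.20 to −0.09). Others kept their sign, such as male-biased genes (1.14 to 2.25) and SR proteins and CLK kinases (−0.90 to −0.48). Because the ribosomal share separates the groups completely, exposure and RNA composition cannot be told apart from these libraries. Without the 2 intermittent hypoxia libraries of highest ribosomal share, replicates 2 and 3, edgeR called 3499 genes.

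**Figure D2:**
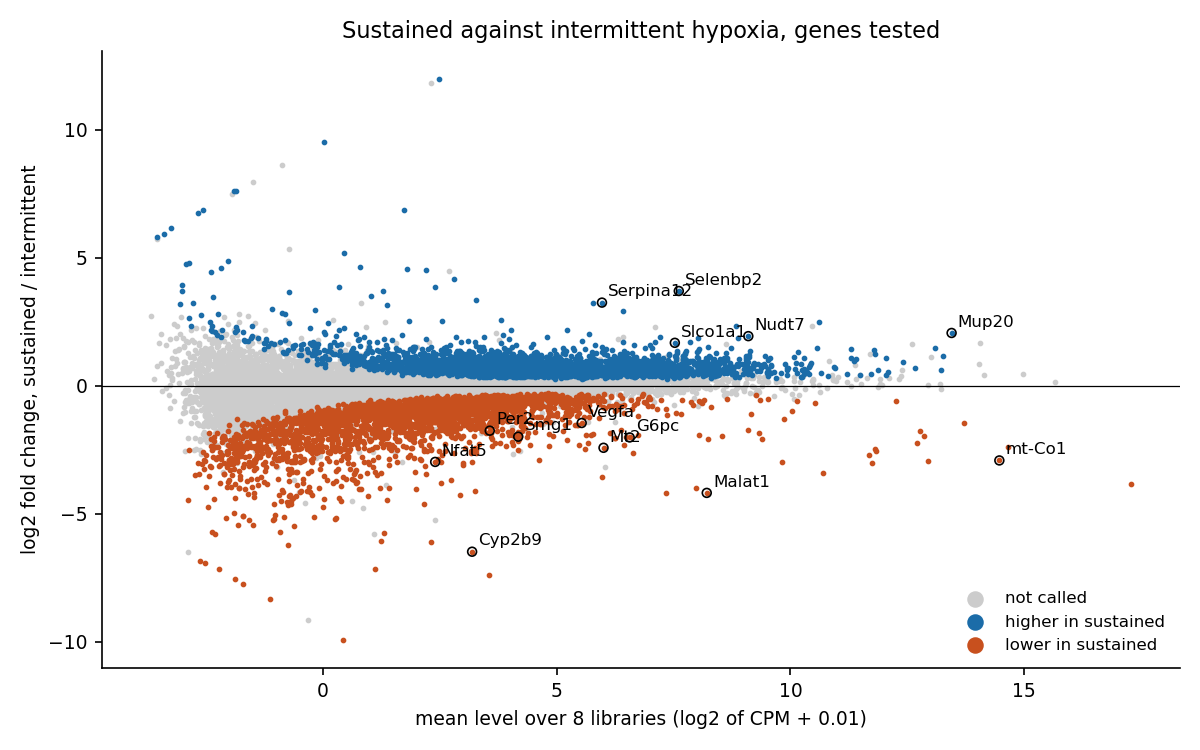
Log2 fold change of sustained over intermittent hypoxia against mean level (log2 of CPM plus 0.01, over 8 libraries) for the 14553 genes tested. Blue points are the 2748 genes called higher and orange points the 2836 called lower in sustained hypoxia; circled genes are named.

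Long genes were more often lower and short genes more often higher in sustained hypoxia. When genes were put in 5 equal classes by total exon length, in the shortest class (107 to 2085 bases), 29.1% were called higher and 9.35% lower, with a median log2 fold change of 0.33. In the longest class (7163 to 123179 bases), 6.67% were called higher and 39.5% lower, with a median of −0.47. Across 14532 genes, the Spearman rank correlation between length and log2 fold change was −0.32, and −0.17 with the ribosomal share as covariate; this is a correlation across genes, which are not independent replicates. Of 275 transcripts of the annotation class TEC, whose existence is unproven, 4 were higher and 123 lower, and of 403 long intergenic noncoding RNAs 30 were higher and 108 lower.

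**Figure D3:**
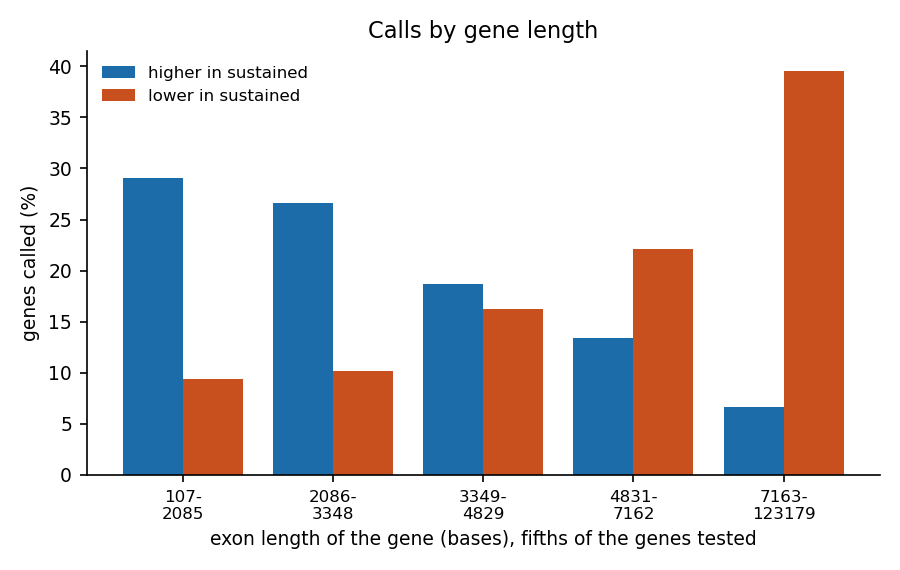
Percent of genes called higher (blue) and lower (orange) in sustained against intermittent hypoxia, in 5 classes of exon length in bases, shortest on the left. The share called lower was 9.35% in the shortest class and 39.5% in the longest.

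The rankings here and in the next paragraphs cover called genes without overlap, of at least 5 CPM on average and not predicted genes or pseudogenes. The 10 lowest p-values included genes of RNA surveillance, stress signalling and chromatin. Smg1 (ENSMUSG00000030655, GRCm38 chromosome 7, 118131308 to 118243670, minus strand), a kinase that triggers nonsense-mediated RNA decay, had 6.90, 8.34, 7.64 and 6.20 CPM in sustained hypoxia libraries, against 30.5, 30.6, 25.9 and 28.5 CPM in intermittent hypoxia libraries. Every sustained value lay far below every intermittent one (log2 fold change −1.99, SE 0.17, edgeR adjusted p = 2.39e-06), and room air stood at 10.2 ± 2.20 CPM (SD, n = 4). Nfat5, the transcription factor of the response to osmotic stress, was lower by 2.98 on the log2 scale (1.17, 1.29, 1.33 and 0.932 CPM in sustained hypoxia, against 9.17, 10.7, 11.6 and 5.96 CPM in intermittent hypoxia). The scaffold gene of JNK signalling Mapk8ip3 (−2.43) and the upstream stress kinase gene Taok2 (−1.77) were lower too. So were Wdfy1 (−2.63), Fnbp4 (−2.37), the nuclear anchoring protein gene Akap8 (−1.66) and the xylulose kinase gene Xylb (−1.71). Tet2, an enzyme that oxidises methylated cytosine with the help of oxygen, was lower by 2.53 and Setd5 by 1.57. For these 10 genes the edgeR adjusted p was at most 1.14e-05 and the groups did not overlap.

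Within the same limits, the largest decreases were in Cyp2b9 (log2 fold change −6.48), a cytochrome P450 gene of female mouse liver, and Malat1 (−4.19), a nuclear long noncoding RNA. In Cyp2b9 intermittent hypoxia replicate 4 stood at 63.6 CPM and the other intermittent libraries at 2.18 to 3.93 CPM, while sustained hypoxia libraries reached at most 0.469 CPM; without that replicate the log2 fold change was −3.92. Malat1 had 16.01, 19.97, 45.4 and 42.1 CPM in sustained hypoxia, against 193, 1170, 283 and 599 CPM in intermittent hypoxia. Without intermittent replicate 2 its log2 fold change was −3.54. The 15 lowest log2 fold changes also included those of mitochondrial transcripts: mt-Nd4l (−3.98), mt-Nd5 (−3.41), mt-Atp8 (−2.98), mt-Co1 (−2.92) and the mitochondrial ribosomal RNAs mt-Rnr1 (−3.01) and mt-Rnr2 (−2.94, and −2.24 without intermittent replicate 2). The chromatin remodeller gene Srcap (−3.81), the fibrillar collagen gene Col5a3 (−3.11), the histamine-forming enzyme gene Hdc (−3.01), Camta2 (−2.99), Fam193b (−2.92) and the methyl-CpG binding protein gene Mbd6 (−2.86) completed the 15, with Nfat5. In all 15 the edgeR adjusted p was at most 0.00753. Of the 50-base words of mt-Nd4l 98.8%, of Srcap 60.3% and of mt-Co1 51.1% also occur in other genes, so the counts of these 3 depend on how reads were shared out.

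The 15 largest increases within the same limits included genes of male liver and of secreted proteins. Selenbp2, a selenium-binding protein gene, was higher by 3.70 on the log2 scale, with 129, 115, 473 and 736 CPM in sustained hypoxia, against 36.2, 40.2, 31.0 and 4.58 CPM in intermittent hypoxia (3.11 without sustained replicate 4). Ugt2b38, a glucuronosyltransferase gene, followed (3.35; 2.59 without sustained replicate 4 and 4.07 without intermittent replicate 1), then Serpina12, the gene of the secreted serpin vaspin (3.25; 4.04 without intermittent replicate 2). Fabp5, a fatty acid binding protein gene, had 151, 70.5, 57.7 and 117 CPM in sustained hypoxia, against 15.3, 7.03, 10.9 and 9.04 CPM in intermittent hypoxia (log2 3.23). The male-biased steroid dehydrogenase gene Hsd3b5 (2.90; 4.03 without intermittent replicate 2), Dct (2.53; 1.71 without sustained replicate 3), Mup9 (2.498), Tmem254c (2.16), Mup20 (2.06), the ribosomal protein gene Rpl10 (2.03), the acetyltransferase gene Nat8 (1.98), Nudt7 (1.94), Mup21 (1.92), Olfml1 (1.89) and Rpl9 (1.88) were the others. Over these 15 genes the edgeR adjusted p lay between 2.1e-05 and 0.0229. Rpl10 lost its call without sustained replicate 1 (log2 1.37, edgeR adjusted p = 0.0908) and without intermittent replicate 2 or 3 (0.0674 and 0.0521). The shares of words found in other genes were 100% for Tmem254c, 79.1% for Mup9, 50.5% for Mup20, 43.9% for Selenbp2, 37.4% for Ugt2b38 and 33.5% for Rpl10.

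Vegfa and other genes of blood vessel growth were lower in sustained hypoxia, while several HIF targets of metabolism were higher. Vegfa (ENSMUSG00000023951, GRCm38 chromosome 17, 46016993 to 46032369, minus strand) had 22.5, 29.7, 21.1 and 25.7 CPM in sustained hypoxia libraries, against 60.9, 74.3, 76.7 and 59.9 CPM in intermittent hypoxia libraries. The groups were well apart (log2 fold change −1.46, SE 0.17, edgeR adjusted p = 1.63e-05), and room air stood at 22.4 ± 4.48 CPM, within the sustained range. Of 20 angiogenic ligands and receptors tested, 11 were lower, none was higher and 9 were not called, with a median log2 fold change of −0.78, against −0.03 over all genes. The receptor gene Notch1 (−1.74), the lymphatic receptor gene Flt4 (−1.66) and the endothelial guidance receptor gene Robo4 (−1.12) were among the 11. The same list had a median of 0.03 in sustained hypoxia against room air and 0.74 in intermittent hypoxia against room air; these comparisons share the intermittent or the sustained libraries with the one above.

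Of 33 HIF target genes, 10 were higher, 3 lower and 20 not called, and the median was 0.20. Pgk1, a glycolytic enzyme gene, had 332, 239.7, 339.5 and 298 CPM in sustained hypoxia, against 144, 86.3, 123 and 163 CPM in intermittent hypoxia (log2 1.23, edgeR adjusted p = 6.22e-05), although 53.9% of its words occur in other genes. Tpi1, another glycolytic gene, was higher by 0.88, and Bnip3l, a receptor that marks mitochondria for removal, by 0.71. The lowest sustained Pgk1 value was above the highest intermittent one, and room air stood at 298 CPM. Without the intermittent libraries of replicates 2 and 3, 6 of the HIF targets were higher. Of 8 genes of HIF subunits and their regulators, 6 were not called and 2 were higher: Egln2 (0.67), a prolyl hydroxylase that senses oxygen, and Vhl (0.61), which marks HIF for destruction. Hif1a itself had 6.48 to 10.6 CPM in sustained hypoxia and 8.06 to 12.5 CPM in intermittent hypoxia, overlapping (edgeR adjusted p = 0.180). Vhl lost its call without sustained replicate 3 or 4 or intermittent replicate 2 (edgeR adjusted p between 0.0550 and 0.0628).

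**Figure D4:**
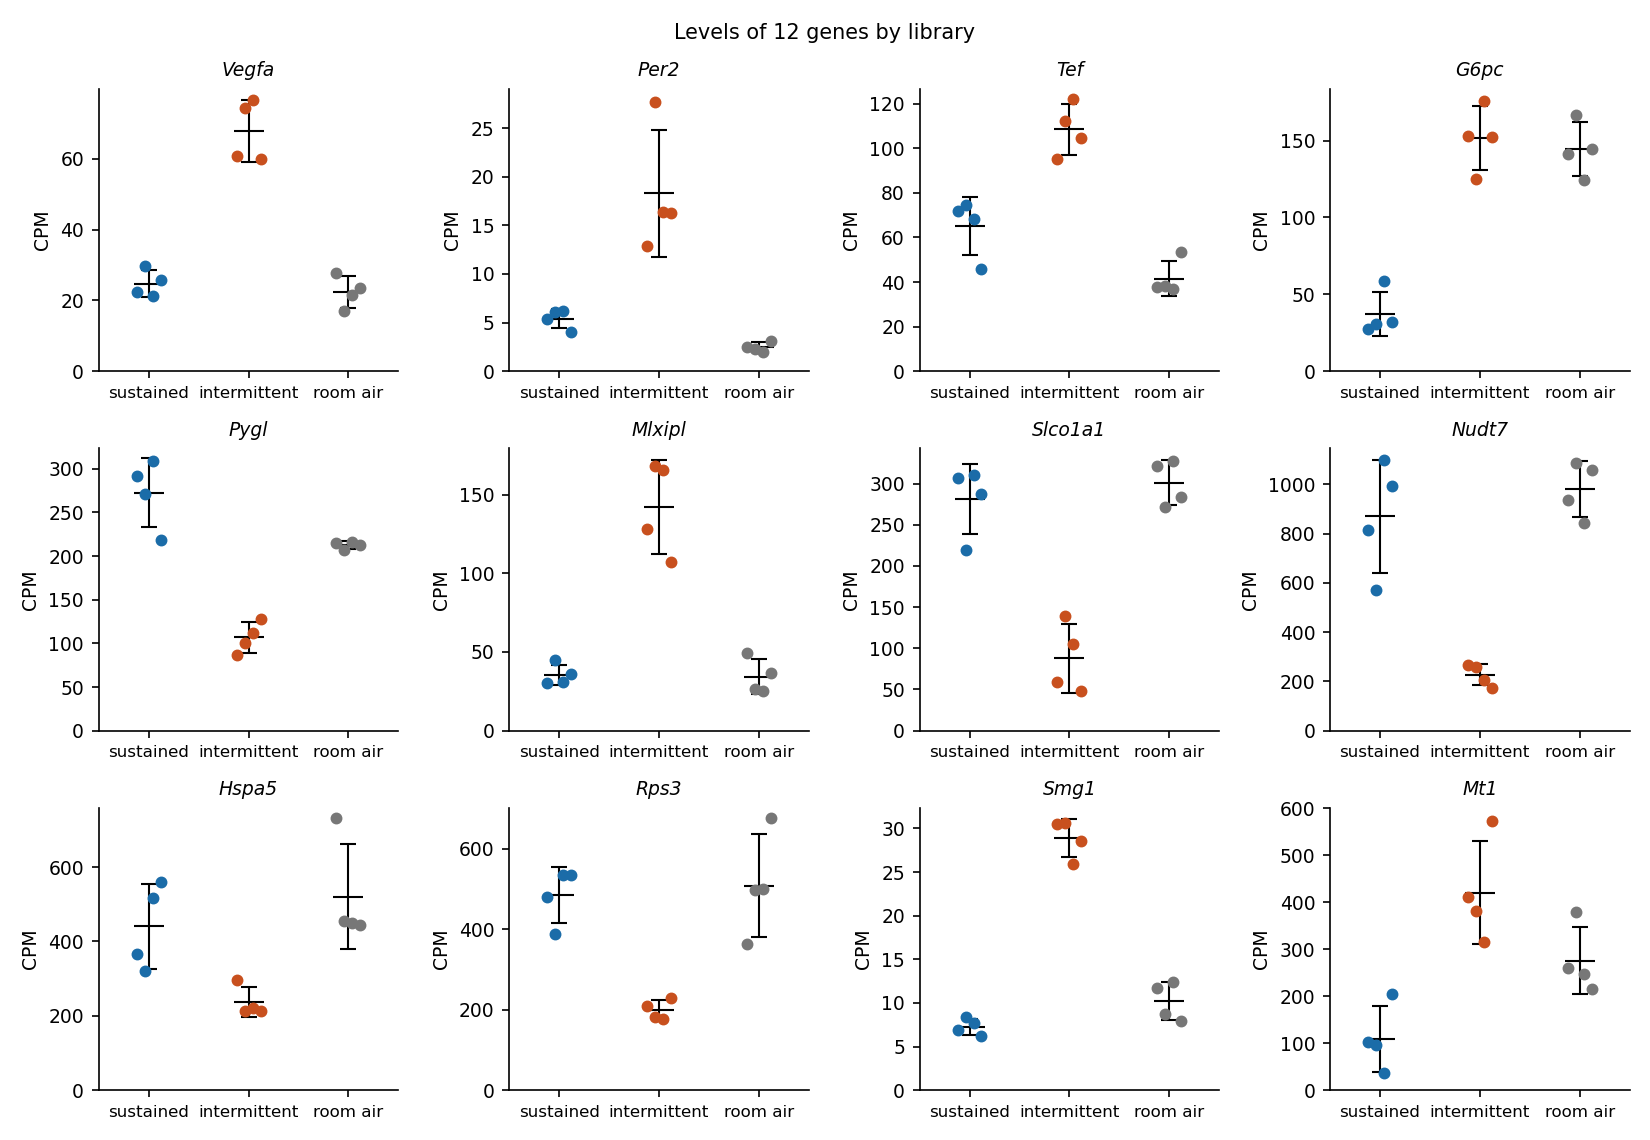
Levels in CPM of 12 genes in each library, with sustained hypoxia on the left, intermittent hypoxia in the middle and room air on the right of each panel; lines give the mean ± SD (n = 4). In Vegfa the sustained libraries lay between 21.1 and 29.7 CPM and the intermittent ones between 59.9 and 76.7 CPM, and in each panel the sustained and intermittent points do not overlap.

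Per1, Per2, Per3 and other repressors and outputs of the circadian clock were lower in sustained hypoxia, 7 of 15 in all. The clock turns on CLOCK and BMAL1, which switch on Per and other genes through a DNA letter pattern called the E-box, and on the PAR factors such as TEF, which act through the D-box. Promoter windows of 3 clock genes that differed are shown because they hold these letters: the 250 bases before the RefSeq start of Per1 (chr11:69098699-69098948, plus strand), Tef (chr15:81802423-81802672, plus strand) and Per3 (chr4:151044666-151044915, minus strand), on GRCm38.p6, 5′ to 3′ along the gene, with the E-box CACGTG or the D-box TTATGTAA in capitals.
Per1: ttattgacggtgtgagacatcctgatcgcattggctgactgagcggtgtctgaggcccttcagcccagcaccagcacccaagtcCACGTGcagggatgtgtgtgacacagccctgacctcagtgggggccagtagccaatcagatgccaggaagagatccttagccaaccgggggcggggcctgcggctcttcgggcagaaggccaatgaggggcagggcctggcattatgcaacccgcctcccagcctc
Tef: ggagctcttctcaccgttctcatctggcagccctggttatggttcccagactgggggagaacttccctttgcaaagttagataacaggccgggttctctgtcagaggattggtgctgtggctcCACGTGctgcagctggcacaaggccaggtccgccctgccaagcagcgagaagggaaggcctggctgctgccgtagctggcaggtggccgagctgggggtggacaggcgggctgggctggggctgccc
Per3: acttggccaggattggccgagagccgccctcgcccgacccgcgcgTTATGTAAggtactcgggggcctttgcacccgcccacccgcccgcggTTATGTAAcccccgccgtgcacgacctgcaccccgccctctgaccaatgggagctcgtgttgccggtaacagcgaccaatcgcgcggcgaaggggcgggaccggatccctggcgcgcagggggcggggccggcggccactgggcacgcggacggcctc

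Searched on both strands, CACGTG was in 6.02% and TTATGTAA in 0.819% of all 32851 windows of the same length in the table. The E-box of Per1 began 166 bases before the start, in the first of its 2 windows, and that of Tef 127 bases before, in the first of 2 that both hold the letters. The D-boxes of Per3 began 205 and 158 bases before the start. The Nr1d2 window held none of these letters. Windows were sought for 12 genes, and 10 of these genes had one in the promoter set, whether or not it held the letters. Per2 and Bhlhe40 had no window there, so their promoters were not searched. A match is a description of the letters and not evidence of binding.

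Per2 (ENSMUSG00000055866, GRCm38 chromosome 1, 91415982 to 91459324, minus strand), a repressor at the core of the clock, had 5.34, 6.06, 6.23 and 4.01 CPM in sustained hypoxia, against 12.8, 27.7, 16.3 and 16.3 CPM in intermittent hypoxia. The lowest intermittent library was above every sustained one (log2 fold change −1.76, SE 0.23, edgeR adjusted p = 3.35e-05), and room air was lower than both at 2.45 ± 0.510 CPM. Per1 had 10.7, 11.9, 9.35 and 5.90 CPM in sustained hypoxia, against 16.8, 18.7, 25.8 and 20.9 CPM in intermittent hypoxia (−1.11, edgeR adjusted p = 0.00470). Per3, whose highest sustained library lay above the lowest intermittent one, was lower by 0.97 and Tef, with no overlap, by 0.74. The REV-ERB beta gene Nr1d2, which represses BMAL1, had 40.9 to 50.2 CPM in sustained hypoxia and 75.5 to 89.8 CPM in intermittent hypoxia (−0.81, edgeR adjusted p = 0.00119). Of the 15 tested, none was higher and 8 were not called (median −0.51); with length and GC offsets 4 were lower and 1 higher, and without intermittent replicates 2 and 3 4 were lower. Dbp, an output gene of the same PAR family as Tef, was not called: it had 92.8 to 126 CPM in sustained hypoxia and 75.3 to 111 CPM in intermittent hypoxia, with room air at 46.6 ± 9.13 CPM (edgeR adjusted p = 0.431).

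Among 6 activators and genes of the opposite phase, edgeR called none, with 2 at an unadjusted p under 0.05, 1 called by DESeq2 and 0 by limma-voom. Clock stood at 2.37 to 4.90 CPM in sustained hypoxia, against 5.51 to 7.82 CPM in intermittent hypoxia (−0.90, edgeR adjusted p = 0.0532). Arntl, which encodes BMAL1, was near 0 in both groups, at most 0.160 CPM in sustained and 0.492 CPM in intermittent hypoxia. The hour of tissue collection is not given, so a difference in exposure and a difference in clock hour cannot be told apart.

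Glucose metabolism genes went both ways, with G6pc low in sustained hypoxia. G6pc (ENSMUSG00000078650, GRCm38 chromosome 11, 101367561 to 101377903, plus strand) encodes the catalytic part of glucose-6-phosphatase, which lets glucose leave the liver. It had 27.5, 31.0, 58.7 and 32.3 CPM in sustained hypoxia, against 153, 125, 176 and 152 CPM in intermittent hypoxia (log2 −2.02, SE 0.25, edgeR adjusted p = 3.23e-05). Room air stood at 144 ± 17.5 CPM, so here the sustained group was the one away from room air (log2 −1.95 against room air, edgeR adjusted p = 0.00525), while intermittent hypoxia differed from room air by 0.07 (edgeR adjusted p = 0.845). Insulin lowers G6pc through FoxO factors, which bind a core written CAAAACA or its reverse complement TGTTTTG, and the promoter window of G6pc (chr11:101367466-101367715, plus strand) holds it in the reverse form, in capitals below, 174 bases before the start.
G6pc: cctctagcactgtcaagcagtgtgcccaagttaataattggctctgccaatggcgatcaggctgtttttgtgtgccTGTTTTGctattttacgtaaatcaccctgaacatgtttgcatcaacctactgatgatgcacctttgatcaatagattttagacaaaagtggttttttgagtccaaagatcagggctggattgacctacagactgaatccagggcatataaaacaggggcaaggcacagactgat

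The core was in 5.56% of the 32851 windows, counting both strands, and also in those of Igfbp1, Irs1 and Irs2. Pck1, which starts glucose synthesis from oxaloacetate, had no such match in its window; its values overlapped between groups, at 832 to 1335 CPM in sustained and 1248 to 2129 CPM in intermittent hypoxia (−0.69, edgeR adjusted p = 0.0357). Leaving out sustained replicate 1 or 2 or intermittent replicate 2, 3 or 4 ended the Pck1 call (edgeR adjusted p between 0.0599 and 0.114). Of 17 genes of glucose production, 5 were higher, 5 lower and 7 not called (median 0.23). Pygl, the liver glycogen phosphorylase, had 292, 271, 309 and 218 CPM in sustained hypoxia, against 86.4, 101, 112 and 128 CPM in intermittent hypoxia (1.35, edgeR adjusted p = 1.17e-05). Pcx, pyruvate carboxylase, was higher by 1.12, and Crtc2, the glucagon-responsive coactivator gene, was lower by 1.15. Pygl and Pcx thus stood on the opposite side from G6pc.

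In insulin and FoxO signalling, 5 of 18 genes were lower, 3 higher and 10 not called, against 19.5% lower and 18.9% higher over all genes. The list median of −0.18 turned to 0.07 with length and GC offsets, under which 3 were lower and 6 higher. Irs1, the insulin receptor substrate, had 0.818, 0.456, 0.240 and 0.629 CPM in sustained hypoxia, against 3.05, 3.61, 2.36 and 1.93 CPM in intermittent hypoxia (−2.33, edgeR adjusted p = 0.000126); 30.9% of Irs1 lies across from a gene on the other strand, and the strand of the reads is not given. Insr, the insulin receptor, was lower by 0.58, but stood at −0.0090 with length and GC offsets (edgeR adjusted p = 0.960). The insulin-like growth factor binding protein gene Igfbp2 (0.94) and the AKT inhibitor gene Trib3 (0.88) were higher. Without sustained replicate 4 or intermittent replicate 3, or without intermittent replicates 2 and 3 together, 3 genes were lower, and with upper-quartile scaling 8.

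Fat synthesis genes differed in few members, among them the regulator Mlxipl. Mlxipl, the carbohydrate-sensing transcription factor ChREBP that switches on fat synthesis, had 30.6, 44.6, 30.8 and 35.8 CPM in sustained hypoxia, against 128, 168, 166 and 107 CPM in intermittent hypoxia (−2.003, edgeR adjusted p = 5.29e-05). The highest sustained value was far below the lowest intermittent one, with room air at 34.4 CPM; Mlxipl RNA is also known to be held in the nucleus of hepatocytes. Lpin2, a phosphatase of triglyceride synthesis, was lower by 1.05. Of 21 fatty acid and triglyceride synthesis genes, 2 were higher, 2 lower and 17 not called (median 0.17); Fasn, fatty acid synthase, had 59.0 to 219.9 CPM in sustained hypoxia and 80.9 to 129 CPM in intermittent hypoxia (edgeR adjusted p = 0.431). Without sustained replicate 4, overlap replicate 2 or overlap replicate 3, the number higher was 6, 6 and 4.

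Lipid droplet genes had 6 of 15 higher, none lower and 9 not called (median 0.45). Plin3 (0.80), a droplet coat protein gene, and Abhd5 (0.73), which activates the main lipase, led by p. Plin2, the main droplet coat in liver, had 206 to 226 CPM in sustained hypoxia and 125 to 197 CPM in intermittent hypoxia (0.45, edgeR adjusted p = 0.0450), both below room air at 440 CPM. The Plin2 call was lost when any sustained library, intermittent replicate 2, 3 or 4 or room air replicate 3 was left out (edgeR adjusted p between 0.0510 and 0.149). The list count was 3 with upper-quartile scaling or with length and GC offsets, 2 without intermittent replicates 2 and 3 together, and 2 or 3 without sustained replicate 1, 2 or 3 or intermittent replicate 2, 3 or 4.

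Of 34 genes that oxidise fatty acids or answer to PPARA, 9 were higher, 1 lower and 24 not called. The list median of 0.07 turned to −0.01 with upper-quartile scaling and to −0.06 with length and GC offsets. Acaa2 (0.64), the last enzyme of the mitochondrial cycle, and Hadha (0.45), its trifunctional enzyme, were higher. Cpt1a, which admits fatty acids to mitochondria, was the 1 lower gene, with 68.5 to 90.0 CPM in sustained hypoxia and 96.5 to 147 CPM in intermittent hypoxia (−0.68, edgeR adjusted p = 0.00141). Sterol synthesis genes had a median of 0.55 with 5 of 24 higher, 1 lower and 18 not called. The share higher was close to the 18.9% over all genes. Tm7sf2 (0.76), a sterol reductase gene, was higher; Hmgcs1, the first dedicated enzyme, was not called (−0.21, edgeR adjusted p = 0.762). The number of sterol genes higher was 9 without sustained replicate 4, 8 without intermittent replicate 4 and 12 without overlap replicate 2, and 1 to 3 without any other sustained or intermittent library, so it rests on single libraries. It was 3 with upper-quartile scaling and 1 without intermittent replicates 2 and 3 together.

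Bile acid genes went both ways. Of 22 tested, 9 were higher, 5 lower and 8 not called (median 0.43). Baat, which joins bile acids to amino acids, had 305.4, 243, 315.5 and 295 CPM in sustained hypoxia, against 116, 146, 143 and 177 CPM in intermittent hypoxia (0.99, edgeR adjusted p = 0.000117). Amacr, a racemase of bile acid synthesis, was higher by 0.90. The 5 lower genes included 2 exporters of the canalicular membrane: Abcg5 (−1.20), a sterol pump, with 24.2 to 36.5 CPM in sustained and 64.8 to 77.7 CPM in intermittent hypoxia, and Abcc2 (−0.89), a pump for conjugated anions; with length and GC offsets 3 were lower. Cyp7a1, the rate-limiting enzyme of bile acid synthesis, was not called; sustained replicate 4 at 30.8 CPM lay below every intermittent library while the other 3 lay above (edgeR adjusted p = 0.301). Of 22 apolipoprotein genes 6 were higher, 1 lower and 15 not called. Apom (1.60) and Apoa1 (0.62), the main protein of high-density lipoprotein, were among the 6.

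Of male-biased liver genes none was lower, and of female-biased ones none was higher in sustained hypoxia. In rodents this sex bias follows the pulsed release of growth hormone in males and its steadier level in females. Of 23 male-biased genes, 12 were higher and 11 not called (median 1.14). Nudt7 (ENSMUSG00000031767, GRCm38 chromosome 8, 114133557 to 114154739, plus strand), a peroxisomal hydrolase of coenzyme A, had 816, 572, 1097 and 993 CPM in sustained hypoxia, against 267, 258, 207 and 175 CPM in intermittent hypoxia (1.94, SE 0.25, edgeR adjusted p = 3.57e-05). The highest intermittent library was below the lowest sustained one, and room air stood at 981 ± 113 CPM. Slco1a1 (ENSMUSG00000041698, GRCm38 chromosome 6, 141907282 to 141946962, minus strand), a transporter of organic anions, had 306.7, 219, 311 and 287 CPM in sustained hypoxia, against 59.3, 139, 105.3 and 48.1 CPM in intermittent hypoxia (1.68, edgeR adjusted p = 0.000242). C8b, a complement gene, was higher by 1.37 and Keg1 by 0.96.

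Of 12 female-biased genes tested, 6 were lower and 6 not called, with a median of −1.72. Cux2, a repressor of male genes in female liver, had 0.0617, 0.139, 0.0266 and 0.0932 CPM in sustained hypoxia, against 0.738, 0.373, 2.18 and 2.88 CPM in intermittent hypoxia (−4.16, edgeR adjusted p = 0.000332). The prolactin receptor gene Prlr was lower by 1.12, but with length and GC offsets by 0.28, which was not called (edgeR adjusted p = 0.465). Without sustained replicate 4, 3 of the 12 were lower, and with length and GC offsets 5. DESeq2 and limma-voom each called 4 of the 12, and none kept its call in all 28 fits other than the covariate. The growth hormone receptor and STAT5 list itself had 1 of 15 genes higher, 2 lower and 12 not called; Stat5b, the transcription factor of the male pattern, was lower by 0.40 (13.1 to 15.5 CPM in sustained and 18.04 to 19.2 CPM in intermittent hypoxia).

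Major urinary protein genes, which male liver secretes in bulk, took 12.2%, 9.63%, 20.5% and 21.4% of counts in the sustained hypoxia libraries, against 2.83%, 10.4%, 5.94% and 4.66% in the intermittent ones. Sustained replicate 2 lay below intermittent replicate 2, and the exact two-sided permutation p was 0.0571 (0.0857 adjusted over 6 measures). Of 22 Mup genes 6 were higher and 16 not called, and without intermittent replicate 2 there were 13 higher, and without intermittent replicates 2 and 3 18. Mup3 had 8960 to 18107 CPM in sustained hypoxia and 3328 to 8736 CPM in intermittent hypoxia (1.16, edgeR adjusted p = 0.00162). These genes are near copies of each other, so single members are uncertain.

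Enzymes that modify drugs and steroids were more often higher than lower. Of 22 glucuronosyl- and sulfotransferase genes, 12 were higher, none lower and 10 not called (median 0.55). Ugt2b36 had 896, 793, 1153 and 1069 CPM in sustained hypoxia, against 388, 505, 499.8 and 544 CPM in intermittent hypoxia (1.01, edgeR adjusted p = 8.96e-05), and Sult1b1, a sulfotransferase gene, was higher by 1.23. Of 38 genes of cytochrome P450 families 1 to 3, 11 were higher, 1 lower and 26 not called. The P450 median of 0.09 turned to −0.04 with length and GC offsets. Cyp2d40 (1.58) and Cyp2j6 (1.09) led, and Cyp3a11, a main drug-metabolising P450, was higher by 0.91. Without intermittent replicate 1 or 2, with upper-quartile scaling or with length and GC offsets, 7 P450 genes were higher, and without intermittent replicates 2 and 3 together 5 were.

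Enzymes that remove peroxide and superoxide were higher in 10 of 17 cases, with none lower and 7 not called (median 0.43). Prdx5, a peroxiredoxin of mitochondria and peroxisomes, had 409, 443, 579 and 499 CPM in sustained hypoxia, against 180.4, 276, 242 and 248 CPM in intermittent hypoxia (1.03, edgeR adjusted p = 0.000168). Prdx2 (1.06), Glrx5 (1.04) and Prdx4 (0.85) were also higher. Targets of NRF2, the factor that answers oxidative stress, went both ways, with 7 of 29 higher, 3 lower and 19 not called (without intermittent replicates 2 and 3, 2 higher and 1 lower). All genes tested gave 18.9% higher and 19.5% lower. The glutathione transferase genes Gstm1 (−0.97) and Gstt2 (0.90) stood on opposite sides, and Hmox1, heme oxygenase, had 6.63 to 8.57 CPM in sustained hypoxia and 5.46 to 9.22 CPM in intermittent hypoxia (edgeR adjusted p = 0.726).

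Mitochondrially encoded and nuclear genes of the respiratory chain went in opposite directions. All 13 mitochondrially encoded genes tested were lower in sustained hypoxia, with a median of −2.48. mt-Nd1, a subunit of complex I, had 926, 1256, 1064 and 1109 CPM in sustained hypoxia, against 5091, 8438, 8015 and 2697 CPM in intermittent hypoxia (−2.48, edgeR adjusted p = 0.000437). With the ribosomal share as covariate the list median was −1.06. Without intermittent replicates 2 and 3 together, 8 of them were called lower. Among 40 nuclear genes of oxidative phosphorylation, 26 were higher, none lower and 14 not called (median 0.55). These are short genes, with a median exon length of 2036.5 bases against 4032 over all genes tested. With length and GC offsets 19 were higher and 1 lower, and the median was 0.29. Atp5b, the catalytic subunit of ATP synthase, had 1026, 905, 1069 and 1106 CPM in sustained hypoxia, against 507, 347, 446 and 634 CPM in intermittent hypoxia (1.09, edgeR adjusted p = 8.69e-05). Cyc1 (1.02), Ndufv1 (1.02) and Uqcrc2 (0.95) were higher as well, and no library pair of these 4 genes overlapped.

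Most ribosomal protein and proteasome genes were higher in sustained hypoxia. Of 59 cytosolic ribosomal protein genes 43 were higher, 1 lower and 15 not called (median 0.57). Rps3 had 479.9, 387, 535 and 535 CPM in sustained hypoxia, against 209, 182, 177 and 229 CPM in intermittent hypoxia (1.28, edgeR adjusted p = 4.31e-05); Rpl3 (1.44), Rps9 (1.29) and Rpl11 (1.04) followed. Of 25 proteasome subunit genes 19 were higher, none lower and 6 not called (median 0.61), led by Psma6 (0.99), Psmd8 (0.82) and Psmc1 (0.74). Of 23 genes of autophagy and lysosomes 16 were higher, 2 lower and 5 not called (median 0.54), and without intermittent replicates 2 and 3 7 were higher (median 0.44). Gabarapl2, which coats autophagosomes, had 95.4, 76.2, 109 and 96.4 CPM in sustained hypoxia, against 35.3, 41.1, 41.7 and 46.8 CPM in intermittent hypoxia (1.19, edgeR adjusted p = 1.91e-05). Atg5 (0.84) and Atg16l1 (0.73), which attach it to membranes, were higher, and the cargo receptor gene Nbr1 was lower (−1.003). The ribosomal protein genes had a median exon length of 1840 bases and the proteasome genes of 2808 bases, against 4032 bases over all genes tested; with length and GC offsets 31 and 17 were higher, and the medians were 0.36 and 0.50.

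Endoplasmic reticulum chaperones were higher in 10 of 26 cases, with 2 lower and 14 not called (median 0.43). Hspa5, the main chaperone of that compartment, had 367, 321, 516 and 559 CPM in sustained hypoxia, against 296, 213, 220.3 and 214 CPM in intermittent hypoxia (0.90, edgeR adjusted p = 0.00197), with room air at 521 ± 141 CPM. P4hb (0.83), Pdia6 (0.90) and Pdia3 (0.73), which form disulfide bonds, were higher too. Without sustained replicate 4, 6 of the list were higher, and without intermittent replicates 2 and 3 4. Hsf1, the master factor of the heat shock response, was lower (−1.36), and Cirbp, a cold-inducible RNA-binding protein gene, was not called (edgeR adjusted p = 0.634).

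Most genes of splicing regulators and histone-modifying enzymes, and several nuclear RNAs, were lower in sustained hypoxia. Of 31 SR proteins and CLK kinases, 26 were lower, none higher and 5 not called (median −0.90). Srrm2, a scaffold of nuclear speckles, had 9.76, 13.9, 13.1 and 11.5 CPM in sustained hypoxia, against 50.4, 48.1, 51.0 and 31.0 CPM in intermittent hypoxia (−1.90, edgeR adjusted p = 1.17e-05). Luc7l2 (−2.12), Srsf11 (−1.37) and the kinase gene Clk4 (−1.23), which phosphorylates SR proteins, were lower as well. Of 30 histone methyltransferases and demethylases 23 were lower, 1 higher and 6 not called (median −1.14). The 23 included the methyltransferase gene Kmt2a (−2.89) and the demethylase gene Kdm6b (−2.28), whose enzyme uses oxygen. Of 10 RNAs that stay in the nucleus 6 were lower and 4 not called (median −1.90): Neat1, the scaffold of paraspeckles, had 4.55, 8.13, 3.70 and 5.83 CPM in sustained hypoxia, against 18.4, 40.2, 30.2 and 22.8 CPM in intermittent hypoxia (−2.32, edgeR adjusted p = 0.000718). The antisense RNA Kcnq1ot1 (−2.53; −0.60 with length and GC offsets, edgeR adjusted p = 0.0600) and Nlrp6 (−2.22) were in the same list.

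These groups are made of long genes, with median exon lengths of 7299, 10599 and 7752 bases. With length and GC offsets, 22 splicing genes, 20 chromatin genes and 5 nuclear RNAs were lower, and the medians were −0.49, −0.72 and −1.05. Of 15 nonsense-mediated decay factors 6 were lower, 1 higher and 8 not called (without intermittent replicates 2 and 3, 3 were lower); Smg6 (−0.99) was lower with Smg1, and Eif4a3 (0.72), a core protein of the exon junction, was higher. In the p53 pathway 4 of 15 genes were lower and 11 not called, with a median of −0.37 that turned to 0.21 without intermittent replicates 2 and 3, when 2 were lower. Mdm4, which restrains p53, had 4.28, 5.55, 4.82 and 4.41 CPM in sustained hypoxia, against 20.3, 27.9, 24.1 and 18.4 CPM in intermittent hypoxia (−2.25, edgeR adjusted p = 1.14e-05).

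Genes of amino acid breakdown and of secreted plasma proteins were more often called higher than lower in sustained hypoxia. Of 33 genes of the urea cycle and amino acid breakdown 16 were higher, 3 lower and 14 not called (median 0.40), and without intermittent replicates 2 and 3 7 were higher (median 0.16). Otc, a urea cycle enzyme of mitochondria, had 474, 454, 578 and 490.4 CPM in sustained hypoxia, against 264, 321, 319.4 and 306.2 CPM in intermittent hypoxia (0.72, edgeR adjusted p = 0.000765). Ass1, the next enzyme of the cycle, was higher by 1.03, and Tdo2 and Haao, which degrade tryptophan, by 0.81 each; 38.6% of the words of Ass1 occur in other genes. Of 32 complement and coagulation factor genes 19 were higher, 1 lower and 12 not called (median 0.52), and without intermittent replicates 2 and 3 11 were higher. F13b, a subunit of the clot-stabilising factor, had 136, 107, 144 and 129 CPM in sustained hypoxia, against 53.4, 36.0, 53.8 and 67.3 CPM in intermittent hypoxia (1.29, edgeR adjusted p = 1.96e-05), and F10 (0.94), F11 (0.93) and C8g (0.89) followed. Of 24 acute phase genes 6 were higher, 1 lower and 17 not called, against 18.9% higher and 19.5% lower over all genes. The number higher was 2 without sustained replicate 4 or intermittent replicate 2, and 3 without intermittent replicate 3. With length and GC offsets 2 were higher, with upper-quartile scaling 3 and without intermittent replicates 2 and 3 1. Saa1, serum amyloid A, varied widely, with 32.7 to 249 CPM in sustained hypoxia and 19.8 to 71.2 CPM in intermittent hypoxia (edgeR adjusted p = 0.230).

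**Figure D5:**
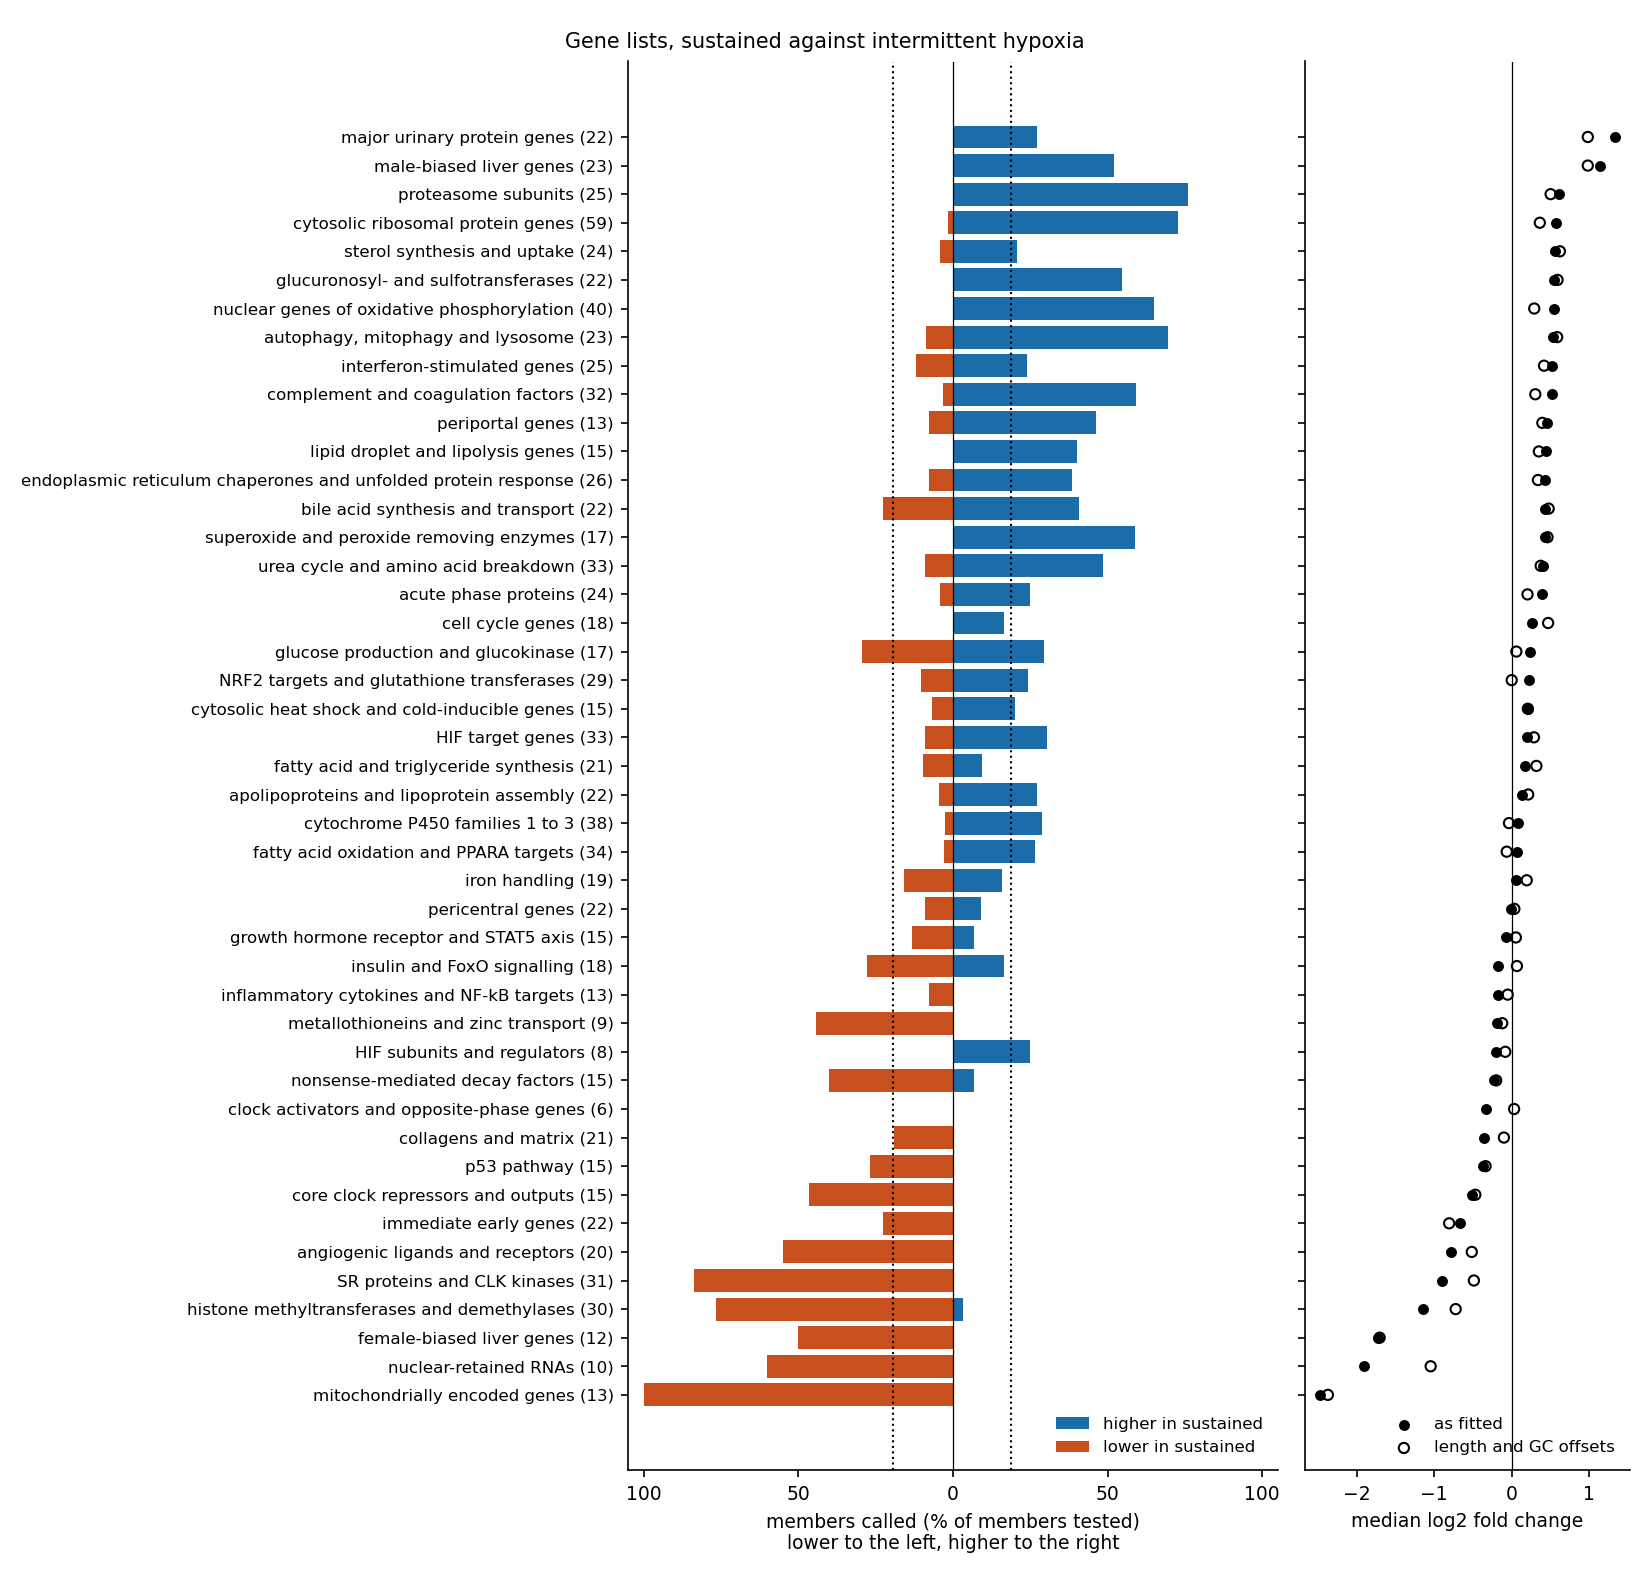
Left, percent of tested members of each gene list called higher (blue, to the right) or lower (orange, to the left) in sustained against intermittent hypoxia, with the number tested in brackets; dotted lines mark the 18.9% higher and 19.5% lower over all genes. Right, the median log2 fold change of each list as fitted (filled) and with length and GC offsets (open): 26 of 31 SR protein and CLK kinase genes were lower and 43 of 59 ribosomal protein genes higher.

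The metallothionein genes Mt1 and Mt2 were lower in sustained hypoxia. Mt1, a metallothionein, which binds zinc and copper, had 102, 96.2, 35.6 and 205 CPM in sustained hypoxia, against 412, 381, 314.6 and 574 CPM in intermittent hypoxia (−1.94, edgeR adjusted p = 0.00659). Mt2 was lower by 2.42, although 73.5% of its length overlaps an antisense gene. Both groups were separate in both genes, with room air between them at 276 CPM for Mt1 and 80.0 CPM for Mt2. The zinc importer gene Slc39a14 was lower by 0.63, and by 0.27 with length and GC offsets, which was not called (edgeR adjusted p = 0.252). Of 9 genes in the list 4 were lower and 5 not called, and 2 were lower with length and GC offsets or without intermittent replicates 2 and 3. Of 19 iron handling genes 3 were higher, 3 lower and 13 not called; Hamp, the iron hormone hepcidin, had 572 to 1198 CPM in sustained hypoxia and 739 to 1867 CPM in intermittent hypoxia (edgeR adjusted p = 0.214). Without room air replicate 4, or with length and GC offsets, 5 iron genes were higher, and without intermittent replicates 2 and 3 1 was higher and 1 lower.

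Immediate early genes, which answer signals within minutes, had 5 of 22 members lower, none higher and 17 not called (median −0.67). The share lower was close to the 19.5% over all genes. Zfp36, which destabilises inflammatory messenger RNAs, had 16.6, 19.0, 10.4 and 42.8 CPM in sustained hypoxia, against 82.7, 83.9, 116 and 53.5 CPM in intermittent hypoxia (−1.92, edgeR adjusted p = 0.00951), and Fosl2 was lower by 1.64. The number lower was 10 without sustained replicate 4, 2 without sustained replicate 1, 2 or 3, 3 without intermittent replicate 3, and 2 without intermittent replicates 2 and 3 together. Interferon-stimulated genes went both ways, with 6 of 25 higher, 3 lower and 16 not called (3 higher without sustained replicate 4; 3 higher and 1 lower without intermittent replicates 2 and 3). Beside this stand 18.9% higher and 19.5% lower over all genes. Stat2 (−1.49), which carries the interferon signal, was lower and Bst2 (0.77), which tethers viruses to the cell, was higher. Inflammatory cytokines and NF-kB targets had 1 of 13 lower, a share below the 19.5% over all genes. Collagen and matrix genes had 4 of 21 lower and 17 not called, a share close to that over all genes, with Col27a1 (−2.56) among the 4, and with length and GC offsets 4 higher and 2 lower. Cell cycle genes had 3 of 18 higher, a share below the 18.9% over all genes; Ccne1 (2.18), the cyclin that opens S phase, and Pcna (0.80) were among them.

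Genes that mark zones of the liver lobule did not move as 1 group. Of 22 pericentral genes 2 were higher, 2 lower and 18 not called, and without intermittent replicate 4 there were 4 higher. The Wnt target Axin2 was lower by 1.34. Of 13 periportal genes 6 were higher, 1 lower and 6 not called (median 0.45). The count of periportal genes higher was 10 without intermittent replicate 1, and 2 or 3 without sustained replicate 3 or 4 or intermittent replicate 2, 3 or 4; with length and GC offsets it was 3, with upper-quartile scaling 2 and without intermittent replicates 2 and 3 together 1.

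Markers of other liver cells are given beside the 18.9% of all genes that were higher and the 19.5% that were lower. In whole liver RNA, fewer cells of a type and less RNA per cell cannot be told apart. Of 16 markers of sinusoidal endothelial cells, which line the liver's capillaries, 5 were lower and 11 not called (median −0.57), and their summed level was 148 to 200 CPM in sustained hypoxia, against 204 to 218 CPM in intermittent hypoxia and 191 to 214 CPM in room air. Stab2 and Stab1, scavenger receptors of these cells, were lower: Stab2 had 6.07, 7.603, 4.37 and 7.72 CPM in sustained hypoxia, against 13.5, 13.6, 15.6 and 14.8 CPM in intermittent hypoxia (−1.16, edgeR adjusted p = 0.000334), and Stab1 differed by −0.97. The number lower was 3 without sustained replicate 1 or 4 and 8 without sustained replicate 2; it was 2 without intermittent replicates 2 and 3. This list moved the same way as the angiogenic receptor genes, and its part in their difference was not tested.

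Of 16 Kupffer cell markers 3 were higher and 13 not called, a share close to the 18.9% over all genes, with summed levels of 163 to 248 CPM in sustained, 124 to 201 CPM in intermittent hypoxia and 220 to 336.6 CPM in room air; Adgre1 was higher by 1.17 and Folr2 by 1.33, although 63.1% of Folr2 lies across from a gene on the other strand. Without intermittent replicate 1, 7 Kupffer markers were higher, without intermittent replicates 2 and 3 1 was, and the list median of 0.07 turned to −0.02 with upper-quartile scaling. Of 15 stellate cell and fibroblast markers 5 were lower and 10 not called; 2 or 3 were lower without sustained replicate 1 or 3 or intermittent replicate 1 or 4, and 1 with length and GC offsets or without intermittent replicates 2 and 3. Reln was lower by 0.86, but stood at −0.057 with length and GC offsets (edgeR adjusted p = 0.875). Of 7 erythroid genes 3 were higher, such as Alas2 (0.90), which starts heme synthesis in red cells, and 4 not called. Their summed level was 425 to 2091 CPM in sustained hypoxia, 405 to 838 CPM in intermittent hypoxia and 259 to 719 CPM in room air. Monocyte and neutrophil, dendritic cell, lymphocyte and cholangiocyte markers held at most 1 call in each direction per list, and adipocyte markers 1 higher. Mpo of the monocyte and neutrophil list and Ucp1 of the adipocyte list had no counts in the 8 compared libraries. The monocyte and neutrophil markers summed to 30.1 to 45.0 CPM in sustained hypoxia, 12.2 to 30.2 CPM in intermittent hypoxia and 52.7 to 100.5 CPM in room air.

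The 14 genes that stayed called with the ribosomal share as covariate were named after their values were seen. The 10 higher were Hspa5, Manf, a secreted protein of the endoplasmic reticulum stress response, Hao1, the liver's glycolate oxidase, Slco1a1, Ugt2b35, Cyp2c67, Ces3b, Serpina3k, Slc22a28 and the pseudogene Adh6-ps1. The 4 lower were Per2, Mknk2, a kinase of translation factor eIF4E, Crat, carnitine acetyltransferase, and Agpat1, an acyltransferase of phospholipid synthesis. Serpina3k, a secreted serpin, had 10054, 10216, 15675 and 15072 CPM in sustained hypoxia, against 4939, 4975, 4589 and 3841 CPM in intermittent hypoxia, with no overlap (log2 1.48, and 2.12 with the covariate). Hao1 had 231, 181, 249.8 and 183 CPM in sustained hypoxia, against 108, 95.3, 109.7 and 88.6 CPM in intermittent hypoxia (1.07, and 1.56 with the covariate). Mknk2 had 27.5, 36.0, 20.5 and 23.4 CPM in sustained hypoxia, against 46.7, 55.7, 59.8 and 52.8 CPM in intermittent hypoxia, both above room air at 13.3 ± 2.32 CPM (−1.001, and −1.82 with the covariate). The same fit gave Vegfa, G6pc and Nudt7 adjusted p-values above the threshold, as it did for all but the 14. The edgeR calls of Manf and Ces3b without the covariate were lost without sustained replicate 4 (adjusted p = 0.143 and 0.0847) or intermittent replicate 4 (0.111 and 0.0556), and that of Manf also without sustained replicate 3, intermittent replicate 1, 2 or 3, room air replicate 2 or overlap replicate 1 or 3.

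Other called genes named above lost their edgeR call in some fits. With length and GC offsets these were Per1, Per3, Stat5b, Plin2, Apoa1, Vhl, Acaa2, Manf and Ces3b, all with the same direction (adjusted p between 0.0522 and 0.180). Without intermittent replicates 2 and 3 they were Adgre1, Rpl10, Per1, Per3, Stat5b, Slc39a14, Pck1, Plin2, Vhl, Egln2, Gstt2, Gstm1, Reln, Zfp36, Ugt2b38, Selenbp2, mt-Rnr2 and Manf, again with the same direction (adjusted p between 0.0558 and 0.262). Upper-quartile scaling ended the calls of Plin2 and Manf. Fitting only the 8 compared libraries ended those of Vhl, Hsd3b5 and Mup21. That fit with the library number as a replicate block ended 13 calls (edgeR adjusted p between 0.0541 and 0.215). They were Prlr, Igfbp2, Cyp2b9, Zfp36, Manf, Selenbp2, Ugt2b38, Serpina12, Hsd3b5, Mup9, Tmem254c, Mup20 and Mup21. limma-voom did not call Rpl10, Dct, Pck1, Ugt2b38 and Manf. Without a filter on low counts Stat5b, Pck1 and Manf were not called.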

How the data were processed

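The deposited table held expected counts per gene for 16 libraries, which the authors estimated with RSEM after aligning reads with Bowtie 1.3.0 to the mouse build GRCm38, per the submitters' processing notes. Per the labels' protocols, Trizol RNA (1 µg) went through an Illumina TruSeq kit; no source used here gives the strand setting, read length or gene annotation. RSEM shares reads that match several genes among them, so near copies are uncertain. Of 55487 gene identifiers 260 had no symbol, with up to 0.0313% of the counts in any library.

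Expected counts were rounded to whole numbers and filtered with filterByExpr, which kept 14553 genes. They were scaled by TMM and tested with edgeR 4.0.16 (R 4.3.3, robust quasi-likelihood, a coefficient for each of the 4 treatments over all 16 libraries), with the contrast of sustained minus intermittent hypoxia. Adjusted p-values are Benjamini-Hochberg values over all genes tested, called under 0.05; SE is the log2 fold change divided by the root of the F statistic. CPM values use effective library sizes. DESeq2 1.42.0 and limma 3.58.1 were alternatives. The code was tested on simulated counts with known changes, far fewer than the genes called here. The fit recovered 52 of 100 genes changed 2-fold and 76 of 100 changed 4-fold, and called 5 unchanged genes. A gene not called may thus still differ. Shared words are runs of 50 bases found in another gene.

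Gene lists, markers and members were chosen with earlier results of these data known. Named were the 15 largest changes each way and the 10 lowest p-values among called genes without overlap, at least 5 CPM on average and not predicted genes or pseudogenes; up to 4 genes of lowest p in each list; and 21 genes chosen by name. Promoter windows are from RefSeq (GRCm38.p6). P-values measure the spread between libraries, since nothing says that each came from its own animal. No libraries of the same group agreed within counting noise. Libraries with the same number in both groups did not deviate together, so no pairing was used.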

Additional observations from a re-analysis of the deposited data

Results flagged for a closer look

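In 16 of 362 checks, a library stood apart from the other 3 of its group by more than Dixon's 95% critical value; chance marks about 1 in 20 such groups. Several bear on genes described above. Cyp2b9 had a high library in each group, sustained replicate 2 at 0.469 CPM and intermittent replicate 4 at 63.6 CPM. G6pc stood at 58.7 CPM in sustained replicate 3, still below every intermittent library. Plin2 stood at 226 CPM in sustained replicate 2. The endoplasmic reticulum chaperone Hspa5 stood at 296 CPM in intermittent replicate 1 and P4hb at 2101 CPM in sustained replicate 3. Dct stood at 23.1 CPM in sustained replicate 3.

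The other high libraries were all intermittent ones. Replicate 4 was high in the proteasome gene Psma6 at 126 CPM and in the replication clamp gene Pcna at 17.0 CPM. Replicate 3 was high in the zinc importer gene Slc39a14 at 95.4 CPM and in Crtc2 at 19.2 CPM. Saa1 stood at 71.2 CPM in replicate 1, and the antisense RNA Kcnq1ot1 at 12.7 CPM in replicate 2. Low libraries were intermittent replicate 1 for Lpin2 at 185 CPM, replicate 4 for Srrm2 at 31.0 CPM and replicate 3 for Olfml1 at 1.44 CPM. The cause of these departures was not tested.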

How the results depend on the processing

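Against 5584 calls (2748 higher and 2836 lower), the scaling, filter and tool alternatives gave 4865 to 5980. The ribosomal RNA share as covariate gave 14 calls (10 higher and 4 lower), and leaving out intermittent replicates 2 and 3, chosen after seeing the data, gave 3499 (1807 higher and 1692 lower). Leaving out 1 library at a time gave 4608 to 5858. Same-numbered libraries correlated between −0.047 and 0.057 in their deviations, and 2 of 4 best with their own number; with the number as a replicate block 5654 genes were called, and 4750 in such a fit of the 8 compared libraries, chosen after seeing the data. Of the 164 called genes that are named, 131 kept call and direction in all 28 fits other than the covariate; in that fit 14 kept the call, 148 kept only the direction and 2 reversed. Under the covariate the log2 fold changes of Hif1a (0.029), Fasn (−1.35), Cyp7a1 (−0.64), Clock (0.95), Gstt2 (−0.14), Egln2 (−0.020), Dbp (−0.22) and Saa1 (−0.92) changed sign. So did that of Hmox1 with length and GC offsets (−0.22), of Cirbp without sustained replicate 1 (−0.057; 0.56 at the most leaving out 1 library) and without intermittent replicates 2 and 3 (−0.16), and of Hmgcs1 without sustained replicate 4 (0.035; −0.35 at the least leaving out 1 library) and without intermittent replicates 2 and 3 (0.024). Leaving out libraries, the mitochondrial share differed by −6.20 to −4.83 percentage points (exact permutation p = 0.0571 without any of the sustained libraries), the major urinary protein share by 8.15 to 12.1 points (exact permutation p = 0.0286 without sustained replicate 2), and the number of genes with a count by −745.75 to 1239.6, being −66.5 without sustained replicate 2 and −745.75 without intermittent replicate 3. The cause of these shifts was not tested.

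The limits are as follows. With 4 libraries a group, the exact test cannot go below 0.0286. The biological coefficient of variation was 0.233 in sustained hypoxia and 0.355 in intermittent hypoxia, so the spread was unequal between the groups. Exposure, ribosomal share and any difference in RNA handling cannot be told apart, nor can exposure and hour of collection.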
